A study of Mus musculus with 16 samples.

Results

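Interferon response genes, the antiviral and antigen-presentation genes that cells switch on after exposure to interferon, were followed in small intestinal epithelium, adenoma cells and myofibroblasts of the mouse. The group was a list of 36 named genes. Of these, 33 had a probe set that matched no other gene symbol, out of 22180 genes with such a probe set, and each was read from its brightest one. All 33 were among the 18095 genes whose highest group mean lay above the dim level of 2.67 (the 30th percentile of probe set means) and were tested. Oas1a and Gbp2 are not reported because their probe sets also carry another gene's symbol, Oas1g and Gbp2b, and Ifi44 had no probe set named for it alone.

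The study profiled 14 biological samples from 9 C57Bl/6 animals, all labelled male and 8 to 10 weeks old, on 16 arrays. Wild-type crypt organoids were cultured alone (epithelium monoculture, animals P28 and P30) or with myofibroblasts (epithelium co-culture, the same 2 animals). Wild-type small intestinal myofibroblasts, called fibroblasts here, were cultured alone or with organoids (animals Pl_I, Pl_II and Pl_III in both). In co-culture the myofibroblasts sat on an insert with 0.4 µm pores above the Matrigel-embedded organoids for 24 h, so the cells did not touch. Adenoma cells came from the small intestine of 4 Apc+/1638N animals, which carry a germline mutation in one Apc allele (P21, P23, P34 and P36). Their source labels add n=3, which is not explained. Animals P21 and P34 each gave 2 arrays, which were averaged. The titles of P21 and P23 carry the term T2, which the labels do not explain. The culture of the adenoma cells is not described separately, so genotype, tumour origin and culture cannot be told apart in any comparison with them.

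Type I interferons bind the receptor pair Ifnar1 and Ifnar2, and type III interferons bind Ifnlr1 with Il10rb, which in the gut is largely an epithelial receptor. Both act through the kinases Jak1 and Tyk2 on a complex that holds Stat2 and Irf9 and binds the interferon-stimulated response element in promoters. Type II interferon binds Ifngr1 and Ifngr2 and acts mainly through the gamma-activated site. Many cells keep a low tonic output of these genes without infection.

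Promoter sequence was available from RefSeq (GRCm38.p6, from 250 bases before to 50 bases after each annotated start) for 27 of the 36 genes. The core of the response element, searched as GAAANNGAAA on both strands, occurred in 12 of the 27 genes, against 3.99% of 27025 genes with a window of the same length. The core of the gamma-activated site, TTCNNNGAA, occurred in 7 of the 27 genes, against 9.55% of all genes. A match is a description of letters and was not tested for binding. The stretches of 170 bases printed here are from genes whose values are given in the results, and capitals mark every match to the response element core, on either strand. They lie directly upstream of the start of Ifit1 (chr19:34640719-34640888, plus strand), Ifit3 (chr19:34583359-34583528, plus), Isg15 (chr4:156200819-156200988, minus), Oas3 (chr5:120777660-120777829, minus), Bst2 (chr8:71537473-71537642, minus) and Gbp3 (chr3:142559874-142560043, plus), each printed 5′ to 3′ along the gene's strand.
Ifit1: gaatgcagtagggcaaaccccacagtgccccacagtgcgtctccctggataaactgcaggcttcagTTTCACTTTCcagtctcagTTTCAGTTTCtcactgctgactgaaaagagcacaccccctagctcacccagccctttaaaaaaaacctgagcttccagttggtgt
Ifit3: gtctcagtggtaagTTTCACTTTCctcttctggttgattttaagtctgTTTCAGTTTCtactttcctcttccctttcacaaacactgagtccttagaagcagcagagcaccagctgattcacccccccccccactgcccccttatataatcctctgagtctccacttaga
Isg15: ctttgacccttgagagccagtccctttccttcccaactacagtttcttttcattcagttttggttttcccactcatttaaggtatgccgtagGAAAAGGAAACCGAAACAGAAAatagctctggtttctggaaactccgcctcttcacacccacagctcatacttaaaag
Oas3: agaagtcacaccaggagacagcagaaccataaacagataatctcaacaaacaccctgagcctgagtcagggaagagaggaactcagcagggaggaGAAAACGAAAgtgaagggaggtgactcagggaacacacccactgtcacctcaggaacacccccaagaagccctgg
Bst2: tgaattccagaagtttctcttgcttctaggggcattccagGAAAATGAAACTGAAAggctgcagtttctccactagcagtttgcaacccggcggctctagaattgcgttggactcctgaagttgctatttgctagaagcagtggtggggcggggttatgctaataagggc
Gbp3: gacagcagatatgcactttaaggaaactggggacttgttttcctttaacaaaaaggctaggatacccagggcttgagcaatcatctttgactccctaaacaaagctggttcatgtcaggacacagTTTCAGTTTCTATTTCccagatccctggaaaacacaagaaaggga
Ifit1 and Ifit3 each hold 2 separate matches, while those of Isg15, Bst2 and Gbp3 overlap in a single run. Oas3 holds 1 match.

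**Figure D1:**
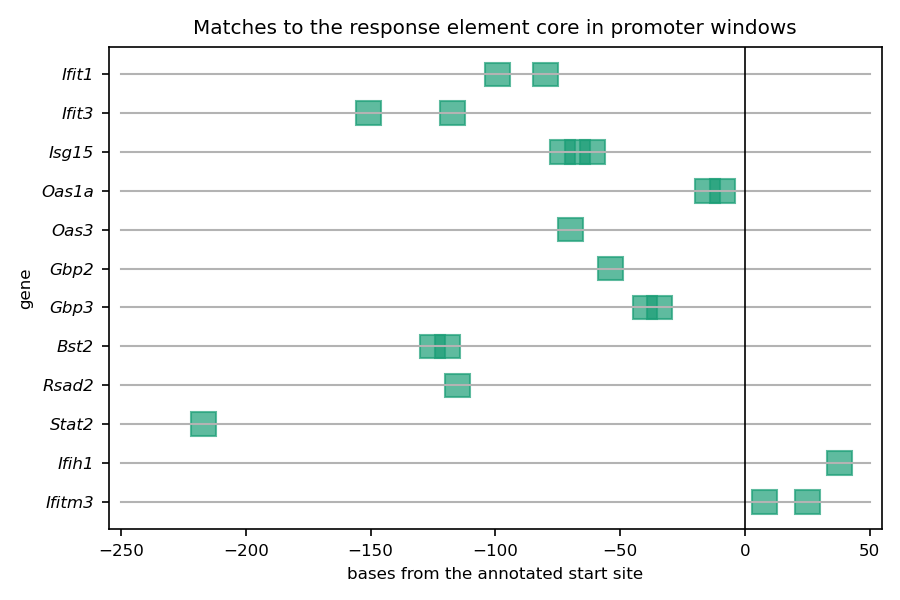
Position of matches to the response element core (green boxes, 10 bases each, both strands) in the RefSeq promoter windows of the 12 genes that hold one, from 250 bases before to 50 after the annotated start (0 on the x axis). In Ifih1 and Ifitm3 the matches lie after the start, and in the other 10 genes before it.

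Array medians lay between 3.48 and 3.58 on the log2 scale. In 4 of the 14 samples, both cultures of P28 and both of Pl_III, the X-inactivation transcript Xist read above the Y-linked gene Eif2s3y although every sample is labelled male. Results are therefore also given without these 2 animals. The third fibroblast monoculture names Pl_III in its title and Pl_II in its source label, and the title was followed. The 12 epithelial markers averaged 10.3 to 11.5 in the epithelial and adenoma samples and 3.16 to 3.65 in the fibroblast samples, and 13 fibroblast and myofibroblast markers averaged 11.1 to 11.3 in fibroblasts and 3.31 to 3.82 elsewhere. The fibroblast samples also carried macrophage and monocyte markers. None of the 16 measured was under the dim level throughout, and their mean was 8.04 to 8.72, against 3.64 to 4.02 in epithelium and adenoma. Lymphocyte markers averaged 2.52 to 2.79 in every group, near the dim level, dendritic cell markers 2.82 to 3.87 and endothelial markers 2.96 to 3.81. In such bulk samples a lower level from fewer cells of a type and one from less RNA per cell cannot be told apart.

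Most interferon response genes had their highest levels in co-cultured fibroblasts, given here as a description with no test. Of the 33 genes, 24 had their highest group mean there, 5 in co-cultured and 4 in monocultured epithelium, and none in adenoma. The lowest group mean was in adenoma for 20 genes. The median of the 33 group means was 4.64 in epithelium monoculture, 4.83 in epithelium co-culture, 4.30 in adenoma, 6.66 in fibroblast monoculture and 7.51 in fibroblast co-culture. The medians over all 18095 genes ran from 5.02 to 5.48 in the same groups. Group means lay below the dim level of 2.67 for Mx2 in epithelium and adenoma, for Gbp3 in epithelium monoculture and adenoma, and for Mx1 everywhere but epithelium co-culture, so differences against these means are compressed.

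**Figure D2:**
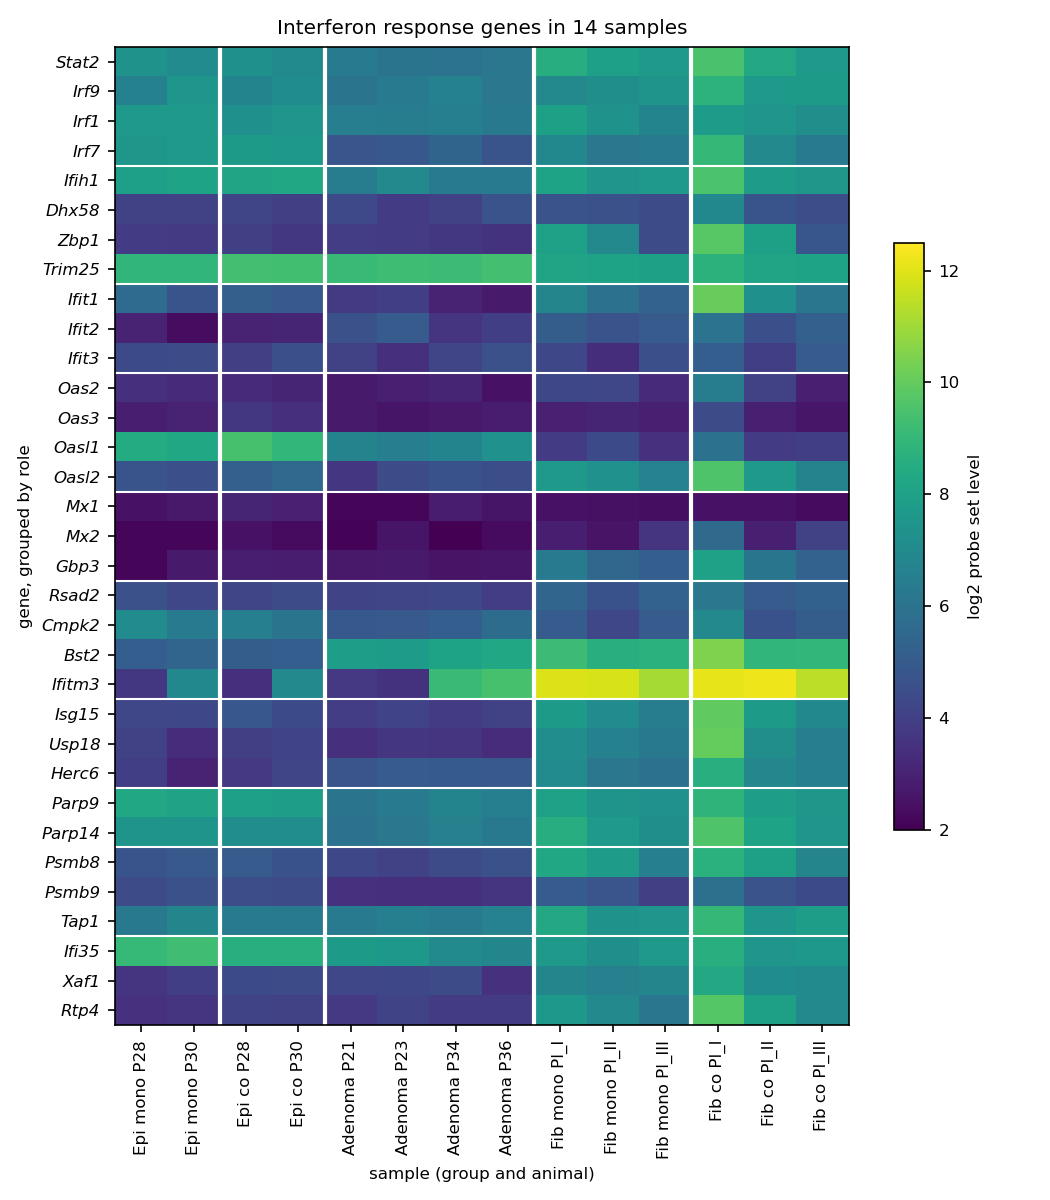
Log2 probe set level of the 33 genes (rows, white lines separate roles) in the 14 samples (columns, white lines separate groups). The column of the Pl_I fibroblast co-culture stands out, with Ifit1 at 10.06 and Usp18 at 10.01, and Ifitm3 is bright in all fibroblast samples and dark in P28, P21 and P23. Colours compare samples within a row, since levels of different probe sets are not comparable.

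In fibroblasts, the genes read higher in co-culture than in monoculture, but mainly in 1 of the 3 animals, and none passed the test. The difference was positive for 32 of the 33 genes, with a median of 0.61, against 0.00339 over all genes. With limma and Benjamini-Hochberg adjustment 0 members were called higher and 0 lower, and the smallest adjusted p was 1. This fit, which also gave the errors after ±, does not pair the cultures by animal. With the animal as a block 0 members were called too, and the smallest adjusted p by limma was 0.259, for Rtp4. Over all 18095 genes, 0 were called higher (0%) and 1 lower (0.00553%). At an unadjusted p under 0.05 limma gave 5 of the 33 genes, Ifit1, Mx2, Irf9, Xaf1 and Rtp4, and 513 of all genes, which is 2.84%.

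The differences were largest in Pl_I. Its pair had a median difference of 1.47 over the 33 genes, against 0.39 in Pl_II and 0.24 in Pl_III, where all genes had medians of 0.0027, 0.00487 and 0.00618. A difference above 1, a 2-fold change, occurred in 21 of the 33 genes in Pl_I against 0.923% of all genes, in 3 genes in Pl_II against 0.801%, and in 0 genes in Pl_III against 0.519%. Of the 20 genes with the largest differences in Pl_I, 9 belonged to the list, and of the first 100, 19 did. In Pl_II 1 of the first 100 did and in Pl_III none. Without Pl_I the median difference was 0.28 and 29 genes stayed positive. Without the Pl_I co-culture alone, which leaves the Pl_I monoculture unpaired, it was 0.04 with 19 positive. Without P28 and Pl_III it was 0.79, and no member was called in any of these fits.

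Pl_I was also the highest of the 3 animals before co-culture in 26 of the 33 genes, against 32.3% of all genes, and in 32 of 33 in co-culture, against 33.6%. The co-culture read above the monoculture in all 3 pairs for 23 of the 33 genes, against 15.3% of all genes. Every co-culture exceeded every monoculture for 2 of the 33, Irf9 and Xaf1, against 3.54% of all genes. Across the 33 genes the pair differences of Pl_I and Pl_II correlated at 0.42, those of Pl_I and Pl_III at 0.21 and those of Pl_II and Pl_III at 0.51, against 0.12, 0.09 and 0.10 over all genes. The points of each correlation share 2 arrays per animal. Macrophage markers gave pair medians of 0.20, -0.04 and 0.05 in the order Pl_I, Pl_II, Pl_III, with 0 of 16 above 1. Their mean level was highest in Pl_III, at 8.69 alone and 8.72 in co-culture, and 8.04 and 8.25 in Pl_I.

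**Figure D3:**
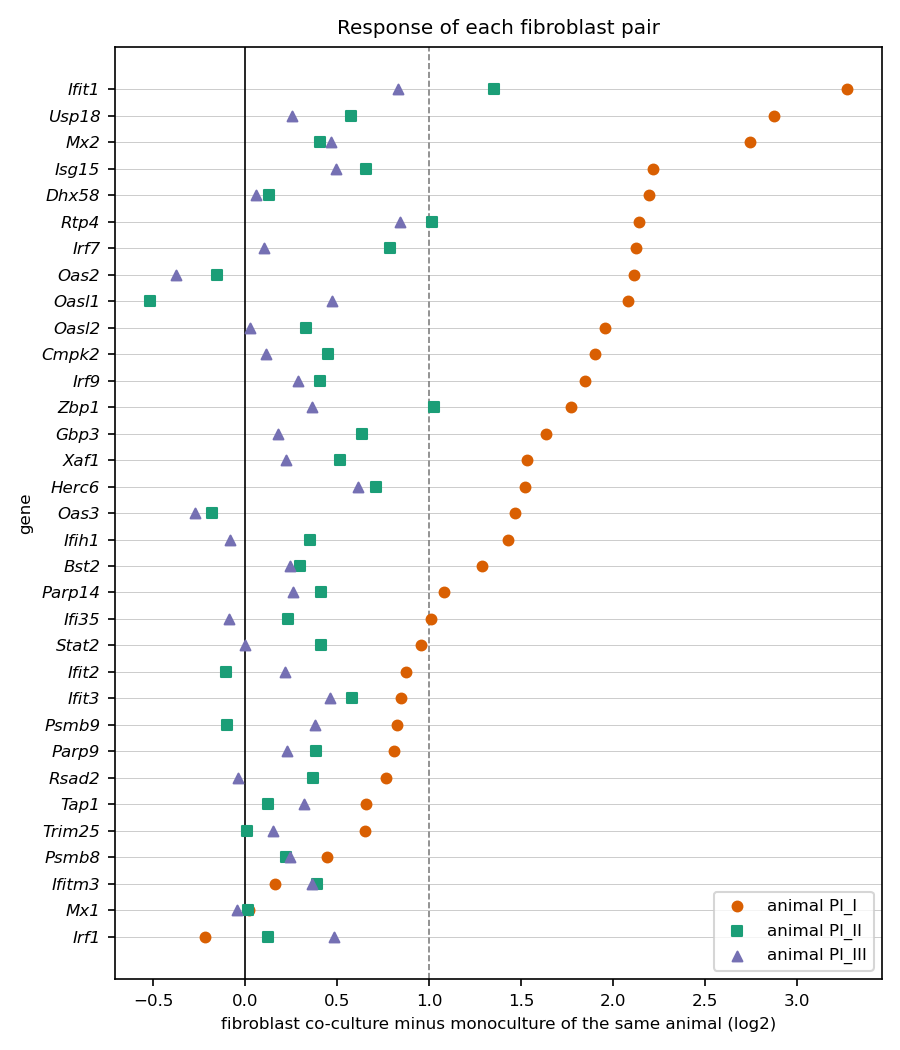
Co-culture minus monoculture of the same animal, on the log2 scale, for each of the 33 genes in the 3 fibroblast pairs, ordered by Pl_I. The solid line marks no difference and the dashed line a 2-fold change, which 21 genes exceed in Pl_I, 3 in Pl_II and none in Pl_III.

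Among the transcription factors, Irf7, which amplifies type I interferon output, read 6.89, 6.15 and 6.28 in the monocultures of Pl_I, Pl_II and Pl_III and 9.01, 6.94 and 6.38 in their co-cultures. The groups overlapped, since the Pl_III co-culture lay below the Pl_I monoculture. The difference was 1.0 ± 0.51 (SE, 3 against 3 samples, 95% interval -0.11 to 2.11). Irf9, the DNA-binding part of the complex, read 6.94, 7.24 and 7.44 alone and 8.79, 7.65 and 7.73 in co-culture, with no overlap. Its difference was 0.85 ± 0.31, and the pairs gave 1.84, 0.41 and 0.29. Stat2, the partner of Irf9, had pair differences of 0.96, 0.41 and 0.0. Irf1, a factor typical of the type II response, was the one gene of the list below its monoculture in Pl_I, with pair differences of -0.22, 0.12 and 0.48.

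The IFIT proteins bind foreign RNA and block its translation. Ifit1 read 6.79, 5.93 and 5.30 alone and 10.06, 7.28 and 6.13 in co-culture, and its Pl_I difference of 3.27, 9.66-fold, was the largest of all genes in that pair. The 3 pairs were 3.27, 1.35 and 0.83, and the fitted difference was 1.82 ± 0.79. The co-culture of Pl_III lay below the monoculture of Pl_I, so the groups overlapped. Ifit3 had pair differences of 0.85, 0.58 and 0.46 and Ifit2 of 0.87, -0.10 and 0.21. Ifit3 read 4.29, 3.38 and 4.56 alone and 5.14, 3.95 and 5.02 in co-culture.

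The ISG15 system attaches the ubiquitin-like protein Isg15 to targets. Isg15 read 7.72, 7.08 and 6.41 alone and 9.94, 7.74 and 6.90 in co-culture, a difference of 1.12 ± 0.59. Usp18, the protease that removes Isg15 and dampens receptor signalling, read 7.13, 6.62 and 6.23 alone and 10.01, 7.20 and 6.49 in co-culture, a difference of 1.24 ± 0.67. Herc6, the mouse ligase for Isg15, read 7.06, 6.15 and 5.92 alone and 8.57, 6.86 and 6.53 in co-culture, a difference of 0.95 ± 0.47. In each of the 3 genes all pairs were positive and Pl_I was highest in both cultures, and the groups overlapped because the Pl_III co-culture lay below the Pl_I monoculture.

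Among the nucleic acid sensors, Zbp1, a sensor of Z-form nucleic acid, read 8.02, 6.93 and 4.44 alone and 9.78, 7.96 and 4.80 in co-culture, a wider range over the animals than between the cultures of any 1 animal. Its difference was 1.05 ± 1.06, and its pairs were 1.77, 1.03 and 0.36, all positive. Without the Pl_I co-culture the difference was -0.08, in a fit that keeps the Pl_I monoculture, the highest of its group, unpaired. Dhx58, a helicase of the RIG-I family, had pair differences of 2.19, 0.13 and 0.06, and Ifih1, the sensor of long double-stranded RNA, of 1.43, 0.35 and -0.08. Trim25, the ubiquitin ligase that activates RIG-I, gave 0.65, 0.01 and 0.15.

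Among the GTPases, Mx2, a dynamin-like antiviral protein, read 2.88, 2.54 and 3.61 alone and 5.62, 2.94 and 4.08 in co-culture. The Pl_I co-culture stood apart from the other 5 samples, and the difference was 1.20 ± 0.51. Mx1, which is defective in many laboratory strains, stayed between 2.32 and 2.51 in all 6 fibroblast samples, under the dim level. Gbp3, a guanylate-binding protein, read 6.36, 5.45 and 5.13 alone and 7.99, 6.08 and 5.31 in co-culture. Its pair differences were 1.63, 0.63 and 0.18.

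Active OAS enzymes make the messenger that activates RNase L. Oas2, Oas3 and Oasl1 exceeded their monoculture by 2.11, 1.47 and 2.08 in Pl_I. These 3 genes differed by -0.16, -0.18 and -0.52 in Pl_II and by -0.37, -0.27 and 0.47 in Pl_III. Oas3 read 2.96, 3.08 and 2.91 alone and 4.43, 2.90 and 2.64 in co-culture, so only the Pl_I co-culture stood above the other fibroblast samples. Oasl2, an OAS-like protein, had pair differences of 1.95, 0.33 and 0.03.

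Rtp4, a chaperone of receptors that is induced by interferon, read 7.59, 6.94 and 6.11 alone and 9.73, 7.95 and 6.95 in co-culture. Its difference was 1.33 ± 0.55 and its pairs were 2.14, 1.01 and 0.84, all positive. Xaf1, a pro-apoptotic protein, read 6.80, 6.59 and 6.81 alone and 8.33, 7.11 and 7.03 in co-culture, without overlap, a difference of 0.76 ± 0.32. The antigen-processing genes had smaller Pl_I differences than the median gene of the list. Psmb8 and Psmb9, subunits of the immunoproteasome, differed by 0.45 and 0.82 there, and Tap1, which carries peptides into the endoplasmic reticulum, by 0.66. Ifitm3, a membrane protein that blocks virus entry, read 11.93, 11.85 and 11.07 alone and 12.09, 12.24 and 11.44 in co-culture, high in both. Of the remaining genes, Cmpk2, Bst2, Parp14 and Ifi35 differed by 1.90, 1.29, 1.08 and 1.01 in Pl_I. Parp9 and Rsad2, the radical-SAM enzyme viperin, differed by 0.81 and 0.77 there.

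In epithelium, co-culture with myofibroblasts was accompanied by no called change in any of the 33 genes, 0 higher and 0 lower by limma, while 2.71% of all genes were called higher and 1.32% lower. At an unadjusted p under 0.05 there were also 0 of 33, against 3065 of 18095 genes. The median difference was 0.03, and 18 of the 33 genes were positive. Pair differences ran from -0.54 to 0.98 in P28 and from -0.67 to 1.16 in P30. Oasl1 read 8.47 and 8.28 in the monocultures of P28 and P30 and 9.45 and 8.95 in their co-cultures, a difference of 0.83 ± 0.57, the largest of the list. The co-cultures lay above both monocultures for this gene. Isg15 read 4.22 and 4.28 alone and 4.85 and 4.36 in co-culture, and Ifit1 read 5.67 and 4.71 alone and 5.18 and 4.91 in co-culture.

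The response of fibroblasts minus that of epithelium had a median of 0.57 over the 33 genes and was positive for 27, against a median of 0.03 over all genes. None was called, 0 higher against 0.271% of all genes and 0 lower against 0.834%, and 0 of 33 had an unadjusted p under 0.05. The 95% intervals were wide. For Ifit1 the difference of responses was 1.96 ± 1.25 with an interval of -0.76 to 4.69. Without the Pl_I fibroblast co-culture the median was -0.01.

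Adenoma cells held lower levels of several interferon signalling and response genes than monocultured epithelium and higher levels of 3. Of the 33 genes 9 were lower, against 18.5% of all genes, and 3 were higher, against 22.5%, by limma with Benjamini-Hochberg adjustment (4 against 2 samples). The median difference was -0.29, against -0.03 over all genes. The lower genes included 3 of the 4 transcription factors, and the higher ones were Bst2, Ifit2 and Herc6. The count of 12 called genes was 5 without the P30 epithelium monoculture, 7 without adenoma animal P23 and 7 without animals P28 and Pl_III. Macrophage markers averaged 3.64 to 3.79 in adenoma and 3.74 to 3.84 in epithelium monoculture, and epithelial markers 10.3 to 10.6 and 11.2. Whether these have a part in the differences was not tested.

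Irf7 read 7.54 and 7.62 in the epithelium monocultures and 4.79, 4.91, 5.36 and 4.75 in adenoma P21, P23, P34 and P36. All adenoma samples lay far below both monocultures, and the difference was -2.63 ± 0.54, adjusted p = 0.00176, a ratio of 0.162. Irf1 read 7.62 and 7.70 in epithelium and 6.50, 6.46, 6.52 and 6.24 in adenoma (-1.23 ± 0.27, adjusted p = 0.00277). Its adenoma values lay within 0.3 of each other and over 1 below the epithelium. Stat2 was also lower (-1.12 ± 0.39, adjusted p = 0.0373), a call that was lost without the P28 or P30 monoculture or without adenoma P23, P34 or P36. Irf9 differed by -0.75 ± 0.33 and did not pass (adjusted p = 0.0899).

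Ifih1 read 7.93 and 8.09 in epithelium and 6.40, 6.96, 6.35 and 6.38 in adenoma, with P23 highest among the adenomas (-1.49 ± 0.42, adjusted p = 0.0134). The call was lost without the P28 or the P30 monoculture. The other sensors Dhx58, Zbp1 and Trim25 differed by 0.20, -0.08 and 0.29 and did not pass. Oasl1, which inhibits Irf7 translation, read 8.47 and 8.28 in epithelium and 6.68, 6.51, 6.74 and 7.30 in adenoma (-1.57 ± 0.49, adjusted p = 0.0232). It did not pass without the P28 or P30 monoculture or without P23. The other OAS genes differed by -0.53 (Oas2), -0.25 (Oas3) and -0.34 (Oasl2), none of which passed.

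Parp9, a partner of Dtx3l in interferon-induced ADP-ribosylation, read 8.28 and 8.05 in epithelium and 6.04, 6.30, 6.74 and 6.53 in adenoma (-1.76 ± 0.32, adjusted p = 0.000803). Parp14, its relative, differed by -1.21 ± 0.48 and did not pass (adjusted p = 0.064). Ifi35, a protein that binds Nmi, read 9.04 and 9.27 in epithelium and 7.71, 7.60, 6.98 and 6.81 in adenoma (-1.88 ± 0.33, adjusted p = 0.000536), and its dimmer second probe set differed by -0.99. Both genes were lower in every adenoma than in either epithelium sample. Cmpk2, a mitochondrial nucleotide kinase beside Rsad2, read 7.08 and 6.39 in epithelium and 4.90, 4.95, 5.12 and 5.71 in adenoma (-1.56 ± 0.53, adjusted p = 0.0311). This call was lost without the P28 or P30 monoculture or without adenoma P21, P23 or P34. Psmb9 was lower too, with a difference of -1.0 ± 0.36 (adjusted p = 0.0447), but 12 of 25 other fits lost the call.

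Of the genes that were higher, Bst2, the tetherin that holds budding virus at the membrane, read 5.15 and 5.44 in epithelium and 7.87, 7.76, 8.10 and 8.24 in adenoma. Every adenoma stood over 2 above both epithelium samples, and the difference was 2.70 ± 0.37, adjusted p = 8.29e-05, 6.49-fold. Ifit2 read 3.04 and 2.37 in epithelium and 4.60, 5.0, 3.60 and 3.93 in adenoma (1.58 ± 0.41, adjusted p = 0.00838), a call lost without the P30 monoculture. Herc6 read 3.94 and 3.04 in epithelium and 4.75, 5.01, 4.98 and 4.94 in adenoma (1.43 ± 0.49, adjusted p = 0.0354), a call lost without the P30 monoculture, without adenoma P23, P34 or P36 and with cyclic loess. The other IFIT genes gave no call. Ifit1 read 5.67 and 4.71 in epithelium and 3.80, 3.97, 3.01 and 2.74 in adenoma, below it in every sample, but missed the threshold (-1.81 ± 0.84, adjusted p = 0.109). Ifit3 read 4.36 and 4.42 in epithelium and 4.05, 3.44, 4.20 and 4.60 in adenoma, with overlap. The difference between Ifit2 and Ifit1 was not tested. With the animal as a block of the epithelial and fibroblast cultures Ifit1 and Parp14 passed in limma (adjusted p = 0.0155 and 0.000999). That fit takes out the spread between animals in both cell types, and fibroblasts enter here only through the shared spread. The SD of Ifit1 was 0.68 in epithelium monoculture and 0.75 and 2.02 in fibroblast mono- and co-culture. For Parp14 these were 0.0035, 0.66 and 1.10.

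**Figure D4:**
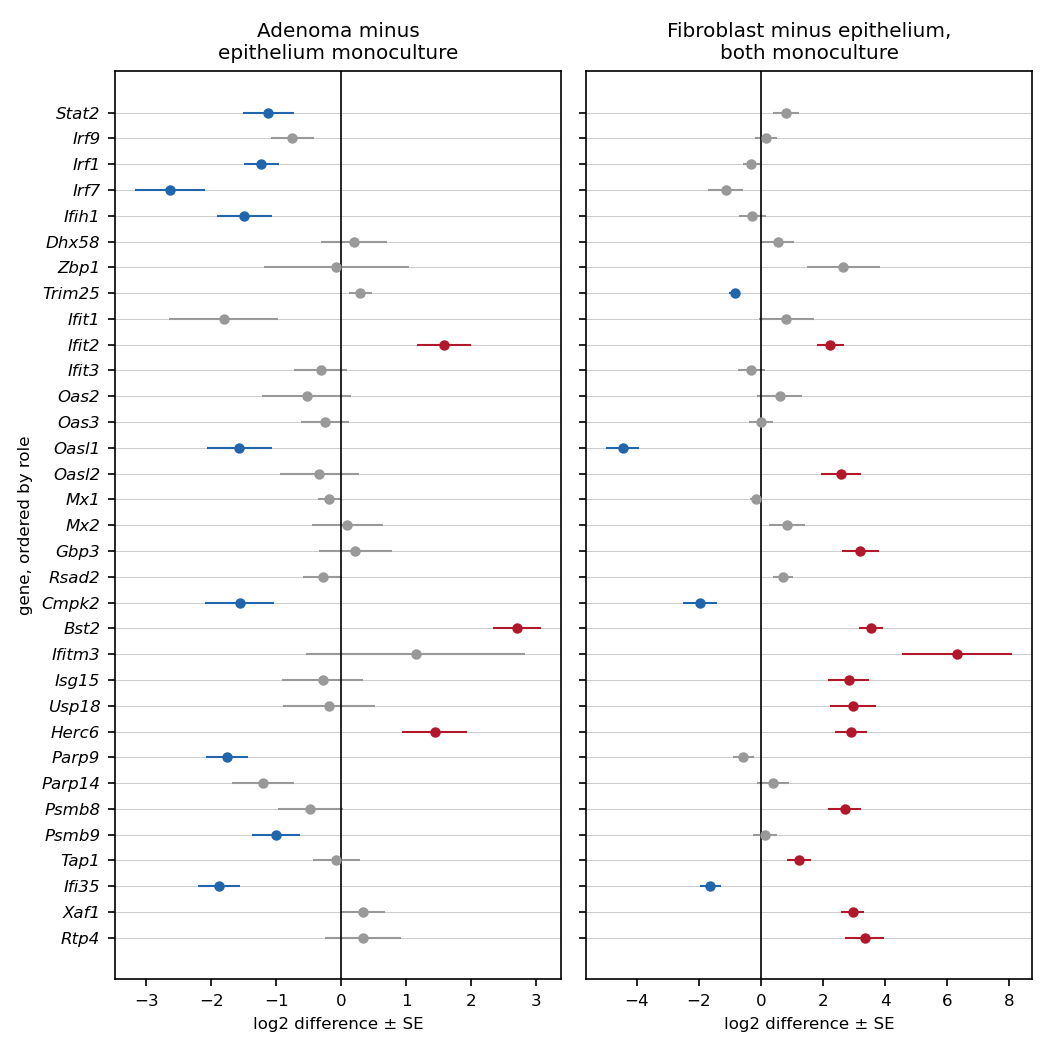
Log2 difference ± SE (limma) of each of the 33 genes, ordered by role, for adenoma minus epithelium monoculture (left) and fibroblast minus epithelium monoculture (right). Red marks genes called higher and blue genes called lower at an adjusted p under 0.05, 3 and 9 on the left and 12 and 4 on the right; grey genes did not pass. Both panels share the epithelium monocultures and have different x axes.

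Against co-cultured epithelium, adenoma had 2 genes of the list higher, against 19.0% of all genes, and 7 lower, against 14.3%. Bst2 (2.89 ± 0.37, adjusted p = 9.65e-05) and Ifit2 (1.20 ± 0.41, adjusted p = 0.0416) were higher. Irf7, Oasl1, Ifih1, Parp9, Ifi35, Irf1 and Mx1 were lower, led by Irf7 (-2.71 ± 0.54, adjusted p = 0.00211) and Oasl1 (-2.39 ± 0.49, adjusted p = 0.00268). Mx1 read 3.09 and 2.95 in co-culture and 2.15, 2.20, 2.83 and 2.60 in adenoma, close to the dim level (-0.58 ± 0.18, adjusted p = 0.027). Only its co-culture mean brought Mx1 past the filter, so the filter favoured this call, which is among the 7 lower. The call of Ifit2 was lost in 11 of 25 other fits and that of Mx1 in 6 of 24, both including the fits without either co-culture. Irf1 and Ifih1 did not pass without either co-culture, nor Ifi35 without that of P28, nor Oasl1 without both P28 and Pl_III. The comparisons with mono- and co-cultured epithelium share the adenoma samples. The count of 9 was 4 without the P28 epithelium co-culture, 5 without that of P30, 4 without P28 and Pl_III, and 17 without the Pl_I fibroblast co-culture, which enters only through the shared spread. The count was 15 with the animal as a block of the epithelial and fibroblast cultures. This fit takes out the spread between animals in both cell types.

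Fibroblasts alone held higher levels than epithelium alone of the ISG15 system, Bst2, Rtp4 and other genes, and lower levels of 4. Of the 33 genes 12 were higher, against 26.5% of all genes, and 4 lower, against 24.2% (3 against 2 samples). The median difference was 0.70, against -0.02 over all genes. The epithelium monocultures also serve as the reference for adenoma and for epithelial co-culture. The fibroblast samples hold macrophage markers at a mean of 8.04 to 8.69, against 3.74 to 3.84 in epithelium, and their part in these differences was not tested.

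The 3 genes of the ISG15 system were all higher in fibroblasts. Isg15 read 7.72, 7.08 and 6.41 in fibroblasts against 4.22 and 4.28 in epithelium (2.82 ± 0.66, adjusted p = 0.00335), Usp18 differed by 2.96 ± 0.74 and Herc6 by 2.89 ± 0.52. The Usp18 call was lost without the P30 monoculture (adjusted p = 0.0514). In epithelium Usp18 read 4.06 and 3.35 and Herc6 3.94 and 3.04, below all fibroblast samples. Bst2 differed by 3.53 ± 0.39, adjusted p = 8.43e-06, 11.6-fold. Rtp4 read 3.51 and 3.59 in epithelium, far under the fibroblasts (3.33 ± 0.61, adjusted p = 0.000626). Xaf1 read 3.63 and 3.94 in epithelium (2.95 ± 0.36, adjusted p = 2.11e-05).

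Gbp3 read 2.16 and 2.75 in epithelium, around the dim level, and differed by 3.19 ± 0.59, adjusted p = 0.000665. Oasl2, Psmb8, Ifit2 and Tap1 differed by 2.57, 2.69, 2.23 and 1.21 and passed. The Tap1 call was lost without the P28 epithelium monoculture or without the Pl_I fibroblast monoculture. Ifitm3 had the largest difference, 6.30 ± 1.77, adjusted p = 0.0103, but its epithelium samples were themselves apart, and without the P28 monoculture it was 4.71 with an adjusted p of 0.115. Zbp1 read 3.83 and 3.79 in epithelium and differed by 2.65 ± 1.18, which did not pass (adjusted p = 0.082). With the animal as a block Zbp1 passed (adjusted p = 1.75e-05), as did Irf7 (0.0242), Stat2 (0.00633), Rsad2 (0.0138) and Parp9 (0.046). The block takes out the spread between animals, which a comparison of cells from different animals has to carry.

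The genes lower in fibroblasts than in epithelium were Oasl1, Cmpk2, Ifi35 and Trim25. Oasl1 read 3.87, 4.37 and 3.49 in fibroblasts against 8.47 and 8.28 in epithelium, so the groups lay over 3.9 apart at their nearest samples (-4.46 ± 0.52, adjusted p = 1.51e-05). Its relative Oasl2 was higher in fibroblasts, with 7.64, 7.32 and 6.66 against 4.71 and 4.56. Cmpk2 read 5.06, 4.22 and 5.0 against 7.08 and 6.39 (-1.98 ± 0.55, adjusted p = 0.01), a call lost without the P28 epithelium monoculture. Ifi35 read 7.62, 7.25 and 7.69 in fibroblasts, below both epithelium samples (-1.63 ± 0.34, adjusted p = 0.00166). Trim25 read 8.11, 8.10 and 7.95 against 8.93 and 8.90 (-0.86 ± 0.18, adjusted p = 0.00183).

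Ifitm3 split the epithelial and adenoma samples by animal. It read 3.72 and 6.91 in the monocultures of P28 and P30 and 3.42 and 6.93 in their co-cultures, so each animal kept its level in both cultures. In adenoma it read 3.74, 3.53, 9.11 and 9.46 in P21, P23, P34 and P36. The repeat arrays gave 3.38 and 4.10 for P21 and 9.15 and 9.07 for P34. The 2 adenomas titled T2 (P21 and P23) therefore lay over 5 below the 2 others, and a fit that separates them gave -5.65 ± 1.06, adjusted p = 0.00684 (2 against 2 samples). The call was lost without P23 or without P36, with differences of -5.54 and -5.47. P28, the epithelium animal with Xist above Eif2s3y, was the lower of its group. Pl_III, the fibroblast animal with Xist above Eif2s3y, was the lowest of its groups, at 11.07 and 11.44. The adenomas split although all 4 had Xist at 2.17 to 2.44 and Eif2s3y at 7.37 to 8.46. A link of Ifitm3 with these markers was not tested.

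Mx1 was the other gene of the list called between these adenomas, at 2.15, 2.20, 2.83 and 2.60 and a difference of -0.54 ± 0.14, adjusted p = 0.0407, all near the dim level, and this call was lost in 16 of 24 other fits. In all 0 of 33 genes were higher in the adenomas titled T2, against 3.65% of all genes, and 2 lower, against 3.49%. The count of 2 was 0 without P23 or without P36 and 1 without P21, without P34 or without either epithelium co-culture, and also without the Pl_I or Pl_II fibroblast monoculture or the Pl_II fibroblast co-culture. Ifitm2, the neighbouring family member, read 7.20, 7.51, 6.98 and 7.36 in the same adenomas and 5.89 and 6.67 in epithelium monoculture, a narrower spread than that of Ifitm3. Sting1, the adaptor of cytosolic DNA sensing and no member of the list, went the other way, with 7.90, 7.86, 3.01 and 2.53 in the adenomas (5.11 ± 0.41, adjusted p = 1.52e-05) and 3.29 and 2.65 in epithelium.

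**Figure D5:**
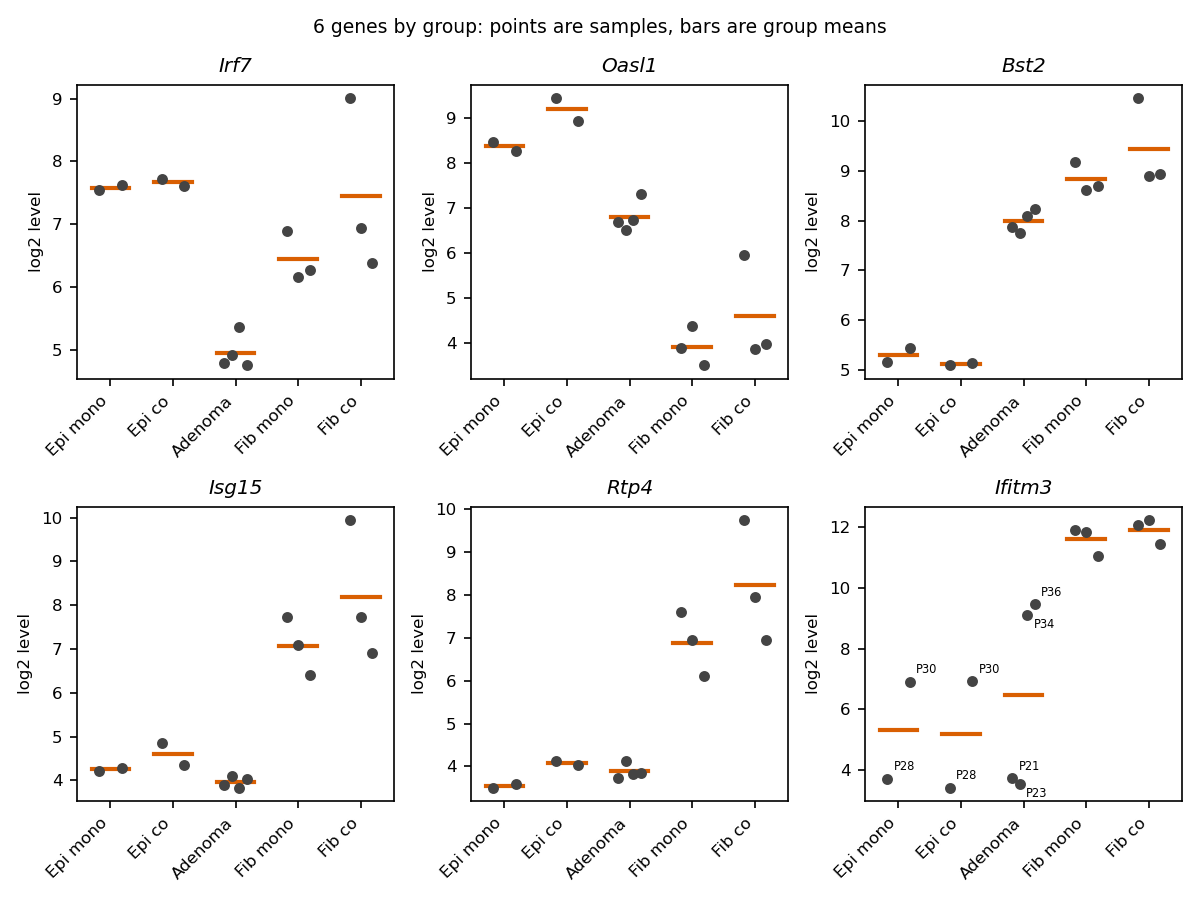
Log2 level of 6 genes in every sample by group (points) with the group mean (bar); each panel has its own y axis and levels of different genes are not comparable. Irf7 and Oasl1 are low in adenoma relative to epithelium, Bst2 is high in adenoma and fibroblasts, Isg15 and Rtp4 are high in fibroblasts with the Pl_I co-culture on top, and Ifitm3 separates P28 from P30 and P21 and P23 from P34 and P36.

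Other genes of the pathway were taken from lists of 103 genes, of which 86 were tested. In fibroblast co-culture 0 were called in either direction, 74 were positive, and the median difference was 0.30. Among 52 other induced genes the pair medians were 0.75, 0.28 and 0.20 for Pl_I, Pl_II and Pl_III. The largest in Pl_I were Apol9b (3.08), Oas1g (2.68) and Oas1b (2.01), where the Pl_II pair gave 0.03, 0.44 and 0.30 and the Pl_III pair -0.17, 1.01 and -0.18. In epithelial co-culture 0 of the 86 were called and the median was 0.02.

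Of the ligands, Ifnb1 and Ifnk lay under the dim level in every group, with Ifnb1 at 1.68 to 2.36 in all samples. Ifng, the type II ligand, lay between 2.21 and 3.12. The group means of Ifna1 were 4.72 to 5.59, those of Ifna4 4.78 to 5.26, those of Ifnl2 5.22 to 5.65 and those of Ifnl3 3.69 to 3.98, above the dim level in every group. These genes have near-identical copies, so their probe sets may share signal. No ligand was called in either co-culture comparison. Transcript levels say nothing of secreted protein.

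The receptors differed by cell type. Ifnlr1, the type III receptor, read 7.20 and 7.16 in epithelium, 6.87, 6.85, 6.67 and 7.06 in adenoma and 4.01, 3.35 and 3.77 in fibroblasts, which lay below every epithelial sample (-3.47 ± 0.29, adjusted p = 8.07e-07). Ifnar2, a chain of the type I receptor, read 7.02 and 7.33 in epithelium and 10.19, 9.93 and 9.41 in fibroblasts (2.67 ± 0.26, adjusted p = 3.46e-06), and its partner Ifnar1 was also higher in fibroblasts (0.78 ± 0.12). In adenoma 4 of the 6 receptor genes were lower than in monocultured epithelium, against 18.5% of all genes, namely Il10rb (-1.29 ± 0.12), Ifngr2 (-0.88 ± 0.22), Ifnar1 (-0.85 ± 0.12) and Ifngr1 (-0.42 ± 0.15). Ifnar1 read 9.37 and 9.25 in epithelium and 8.41, 8.58, 8.48 and 8.37 in adenoma, without overlap.

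Over all 86 genes, adenoma had 5 higher and 18 lower than monocultured epithelium, where 22.5% and 18.5% of all genes were called. Fibroblasts had 30 higher and 15 lower, against 26.5% and 24.2% of all genes. The lower genes in adenoma included Irf8 (-3.0 ± 0.51), a partner of other interferon regulatory factors, Ifit1bl1 (-2.45 ± 0.49), the sensor adaptor Ticam1 (-1.81 ± 0.17), the immunoproteasome subunit Psmb10 (-1.90 ± 0.29) and B2m (-1.03 ± 0.16), the light chain of class I antigen presentation. The higher ones were Ly6e (3.44 ± 0.51), the DNA sensor Cgas (3.14 ± 0.36), Pml (1.70 ± 0.28), Isg20 (0.95 ± 0.30) and Daxx (0.36 ± 0.13). Against co-cultured epithelium 4 were higher and 17 lower, against 19.0% and 14.3% of all genes. Between the adenomas titled T2 and the others 3 were higher, Sting1, Irf8 (1.55 ± 0.39) and Ifngr2 (0.77 ± 0.13), and 0 lower, against 3.65% and 3.49% of all genes. In fibroblasts the chemokines Cxcl10 (5.40 ± 1.08) and Ccl5 (4.66 ± 1.15) and the guanylate-binding protein Gbp7 (4.05 ± 0.56) were among the largest differences from epithelium.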

How the data were processed

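The authors deposited 1 table of log2 levels per probe set for 16 arrays. The submitters' processing notes name RMA without a version. This method subtracts background, equalises arrays and combines probes, which hides a shift of most transcripts in one direction and compresses low values. The genome build was not given in the sources used here. The arrays had 1 colour and took 150 ng of RNA per the labels, and their number limits the precision.

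Probe sets with 1 gene symbol were kept (23521 of 41345), the brightest per gene, and genes were filtered at the 30th percentile (2.67). Technical repeats of adenoma animals P21 and P34 were averaged first (SD over genes 0.28 in both). Group means were fitted with limma 3.58.1 in R 4.3.3 with 1 spread shared by the 5 groups and 11.7 total degrees of freedom, with 2-sided moderated tests and Benjamini-Hochberg adjustment over all 18095 genes at 0.05. Adenomas titled T2 were separated in a 6-group fit with 11 degrees of freedom. Functions were tested on simulated data. Errors after ± are standard errors on the log2 scale.

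The labels pair mono- and co-cultures by animal, and within an animal the deviations from the group means correlated at 0.33 in epithelium and at 0.62, 0.51 and 0.79 in fibroblasts. The animal entered as a block in an alternative. Other alternatives were the filter, cyclic loess, the mean of probe sets, the variance prior, the groups in the fit, array weights, single adenoma arrays and leaving out samples or animals.

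Members and lists were chosen with earlier results of these data known. Genes with values in every sample were the called members (up to 6 in each direction), the 8 with the largest fibroblast co-culture difference, and the 4 with the widest and the 4 with the narrowest range of group means. Promoter windows came from RefSeq.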

Additional observations from a re-analysis of the deposited data

Results flagged for a closer look

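Ifih1 in adenoma had 1 animal apart from the others. P23 read 6.96 where the other 3 animals lay between 6.35 and 6.40, and its gap to the next value was 0.923 of the group's whole range. Chance takes about 1 in 20 groups of 4 past the limit used for such gaps, and 33 genes were examined in adenoma, which alone had 4 samples.

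In 5 genes both epithelium pairs were lower in co-culture and all 3 fibroblast pairs were higher. The fibroblast response minus the epithelium response was 0.56 for Stat2, 0.80 for Bst2, 0.74 for Parp9, 0.88 for Parp14 and 1.27 for Cmpk2. None of these differences was called by limma with Benjamini-Hochberg adjustment. The 5 genes are 15.2% of the 33. Of all 18095 genes 1933, 10.7%, had opposite signs in every pair of the 2 cell types, in either direction. The share of all genes in this direction alone was not counted.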

How the results depend on the processing

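Of 25 alternatives, each changed 1 choice. The counts of called members in epithelium co-culture, fibroblast co-culture and the difference of responses were 0 in all of them, and the 16 of fibroblasts against epithelium ranged from 13 to 21. With the animal as a replicate block 0 members were called in both co-culture comparisons. The 12 calls of adenoma against epithelium monoculture became 7 without animals P28 and Pl_III, and 5 to 15 when 1 sample was left out. The 9 against epithelium co-culture became 17 with only the groups compared, 15 with the animal as a replicate block, 4 without P28 and Pl_III and 17 without Pl_I, and 4 to 17 when 1 sample was left out. The block moved no other count by over 1.5 times. It added calls between cells of different animals. There it takes out the spread between epithelial animals and between fibroblast animals. Each such comparison has to carry the spread of its own cells, and adenoma against epithelium includes no fibroblasts. The 2 calls between adenomas titled T2 and the others became 1 with the 50th percentile filter, with cyclic loess, with the trended and robust prior, with only the first adenoma array and without P28 and Pl_III, 4 with only the groups compared, and 0 to 2 when 1 sample was left out. Where an arm was left with 1 sample, it was assumed to vary like the other groups. The median fibroblast co-culture difference of 0.61 ranged from 0.04 to 0.99 when 1 sample was left out, and that of the difference of responses, 0.57, from -0.01 to 0.98. Leaving out 1 fibroblast sample keeps its partner from the same animal, so that pair is broken. The causes were not tested. Group sizes of 2 to 4 limit every comparison, and probe sets near the dim level cannot show a fall.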
